A study of Mus musculus with 12 samples.

Results

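The regions described here are 1 kb stretches of the mouse autosomes whose DNA methylation was at least 25 percentage points higher in a late fetal brain than in each of 2 younger whole embryos. They were chosen by the difference between the mean levels of 3 libraries: the brain at embryonic day E19.5 (BM19.5brain) and the whole embryos at E15.5 (WT15.5embryo and BM15.5embryo). Of 50096 regions that the rule could test, 1594 were members (3.18%), and 134 were lower in the brain by the same margin. A region's level is the mean over its kept cytosines, those with a value in all 3 libraries and at least 20% in any of the study's 12, and a region needed 5 of them. Reduced representation bisulfite sequencing (RRBS) cuts DNA with MspI, sequences short fragments rich in CpG, and reads the share of unconverted, that is methylated, cytosines at each position.

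The study made mice with 2 mothers or 2 fathers from haploid embryonic stem cells. A bimaternal (BM) embryo came from a parthenogenetic haploid cell injected into a mature oocyte. A bipaternal (BP) embryo came from an androgenetic haploid cell and a sperm placed in an oocyte without its nucleus. Wild-type (WT) embryos came from normal zygotes. The BM E15.5 embryo, the BM E19.5 brain, the BM adult brain and the BP E15.5 embryo carried deletions of differentially methylated regions (DMR-KO), and the labels do not name which ones. The E15.5 embryo and the adult brain labelled WT are the unmodified counterparts. The other 6 libraries were WT stem cells at early and late passage: diploid (ESC), androgenetic haploid (ahESC) and parthenogenetic haploid (phESC, with the early library titled pESC_early). Each group was 1 library, so no value below has a replicate error and no difference was tested. A WT brain at E19.5 is not among these libraries, so tissue, age and library cannot be told apart in the contrast that chose the members, and genotype adds to them for the WT embryo. The labels do not say how many animals or embryos went into a library, and methylation alone cannot check the tissue label by marker expression.

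In mammals, methylation of CpG cytosines is copied at cell division by DNMT1 and placed anew by DNMT3A and DNMT3B. CpG islands at promoters are mostly free of it, while gene bodies and the DNA between genes mostly carry it. Many regulators of development lie in wide unmethylated stretches that Polycomb proteins occupy in stem cells, and these stretches can gain methylation in tissues as they mature. The developing brain holds neurons, glia and their precursors. A whole embryo holds blood, liver, muscle, skeleton and epithelium besides the brain.

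Sequences from 6 members show the density of the cytosines that carried the difference. Capitals mark CpGs with at least 1 cytosine used here, and a CpG can give 1 cytosine on each strand. All are coding stretches, written 5′ to 3′ on the plus strand. Their letters come from GENCODE M21 transcripts, and their mm9 positions from the pattern of listed cytosines. Otx2 (chr14:49281041-49281117) is a homeobox factor of the forebrain and midbrain. Cyp46a1 (chr12:109591047-109591116) is the cholesterol 24-hydroxylase of neurons. Vcpkmt (chr12:70683806-70683939) is a lysine methyltransferase that acts on the ATPase VCP. Ccdc177 (chr12:81858853-81858994) is a coiled-coil protein and lies in one of the longest runs of members. Snai1 (chr2:167364300-167364412) is a repressor of epithelial genes. Igf2 (chr7:149844269-149844295) is the imprinted fetal growth factor, and its stretch was high in 1 brain library alone.
Otx2: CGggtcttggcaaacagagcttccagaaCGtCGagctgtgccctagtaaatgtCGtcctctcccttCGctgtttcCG
Cyp46a1: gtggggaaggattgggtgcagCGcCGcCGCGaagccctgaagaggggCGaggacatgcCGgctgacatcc
Vcpkmt: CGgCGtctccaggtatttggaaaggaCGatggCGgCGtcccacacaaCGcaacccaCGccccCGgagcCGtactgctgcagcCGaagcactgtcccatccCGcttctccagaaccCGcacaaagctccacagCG
Ccdc177: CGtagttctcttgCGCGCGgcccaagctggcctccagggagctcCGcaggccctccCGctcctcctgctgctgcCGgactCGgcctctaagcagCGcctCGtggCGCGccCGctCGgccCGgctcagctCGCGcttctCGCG
Snai1: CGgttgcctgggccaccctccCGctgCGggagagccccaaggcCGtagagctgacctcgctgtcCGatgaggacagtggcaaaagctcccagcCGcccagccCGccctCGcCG
Igf2: ctggaagcCGgCGaCGctgcCGcccat

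The Ccdc177 stretch held 38 kept cytosines in 19 CpGs within 142 bases. Their mean was 51.3% in the E19.5 brain, with single cytosines from 28.1% to 75.0%. It was 7.23% in the WT embryo and 7.12% in the BM embryo, where the highest cytosines were at 21.4% and 15.2%. The kept cytosines of brain and embryos thus did not overlap. These 3 libraries chose the member, so nothing is read from this. The Otx2 stretch held 10 cytosines in 6 CpGs, with 57.9% in the E19.5 brain (28.6% to 72.7%) and 16.2% and 21.1% in the WT and BM embryos (up to 43.6% and 50.8%). Here single cytosines of the brain and the embryos overlapped. The 10 cytosines are all those kept in the region, so the rule itself set a gap between the means. In the Vcpkmt stretch 26 cytosines averaged 51.3% in the E19.5 brain, 1.19% in the WT embryo and 1.61% in the BM embryo.

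The mean level of the 1594 members was 65.1% in the E19.5 brain, 30.1% in the WT embryo and 32.6% in the BM embryo. These values chose the members and are a description. Over all 50096 regions the means were 75.0%, 67.9% and 69.7%, so the members were not the most methylated regions of the brain but regions with an intermediate level that were low in the embryos. The smaller of the 2 brain minus embryo differences had a median of 29.9 points over the members and of 2.99 points over all regions. The largest was 69.8 points. A level between 0 and 100% in bulk DNA can come from a fraction of the cells or from part of the copies in each cell, and these cannot be told apart.

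**Figure D1:**
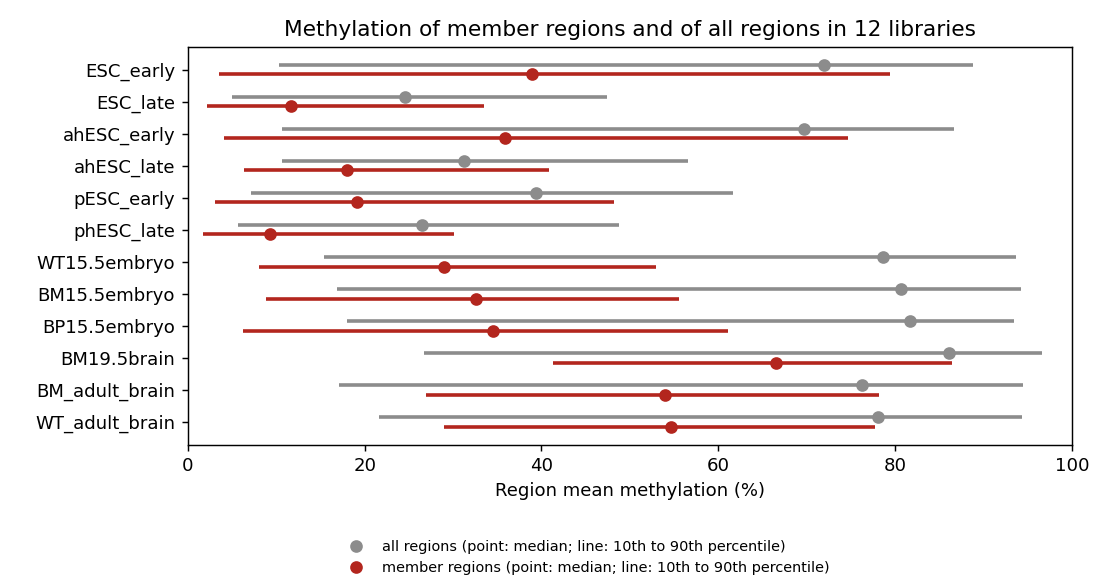
Region mean methylation in percent for the 12 libraries, with members in red and all regions in grey. Points are medians and lines run from the 10th to the 90th percentile over regions. The members' median was 66.5% in the E19.5 brain and 29.0% to 34.5% in the 3 embryos.

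A member rested on a median of 8 kept cytosines, as did all regions. In 1430 of the 1594 members every kept cytosine was higher in the E19.5 brain than in both embryos, which held for 7943 of all 50096 regions. The same 3 libraries chose the members, so a high count follows in large part from the rule. Within a member the standard deviation over its cytosines had a median of 13.6 points in the brain and 12.2 points in the WT embryo. Over all regions these were 7.09 and 9 points. At the edge of the rule, the 3 members just inside had smaller differences of 25.002, 25.004 and 25.017 points. The 3 regions just outside had 24.995, 24.992 and 24.979 points. The first member lay in an intron of Pdgfa, a platelet-derived growth factor, and the region at 24.979 in an intron of Dlc1.

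The adult brains and the BP embryo did not choose members by their difference, and they were compared over cytosines with a value in both libraries, at least 5 per region. They entered the choice only through the 20% that a cytosine had to reach in any library. In the adult WT brain 508 of 1296 members with a value were higher than in the BP embryo by at least 25 points (39.2%). The same margin was passed by 2.91% of all 39442 regions compared. The median difference was 21.7 points over the members and 1.01 points over all regions. Above 0 were 1199 of the 1296 members (92.5%), beside 54.7% of all regions. Lower by 25 points were 4 members, beside 3.75% of all regions. Members without 5 shared cytosines were left out of these counts. Without the 20% floor 36 regions were members and 3 of 22 passed (13.6%, beside 0.0513% of all regions). With the 20% to be reached in any of the 6 stem cell libraries alone, 981 were members and 286 of 785 passed (36.4%, beside 1.8%).

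For the BM adult brain, 404 of 1046 members were higher than in the BP embryo by at least 25 points (38.6%), beside 3.12% of all 30928 regions. The median difference was 20.2 points, against 0.0989 points over all regions. Again the BP embryo's mean was lower over the members, 33.4% against 69.5% over all regions. Only 1 of these 1046 members was lower by that margin, beside 5.42% of all regions. Both comparisons use the BP embryo, so they do not count as separate evidence. The E19.5 brain minus the BP embryo gave 1077 of 1441 members higher (74.7%), beside 4.58% of all regions. That brain library also chose the members, so only the embryo is new in this count.

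**Figure D2:**
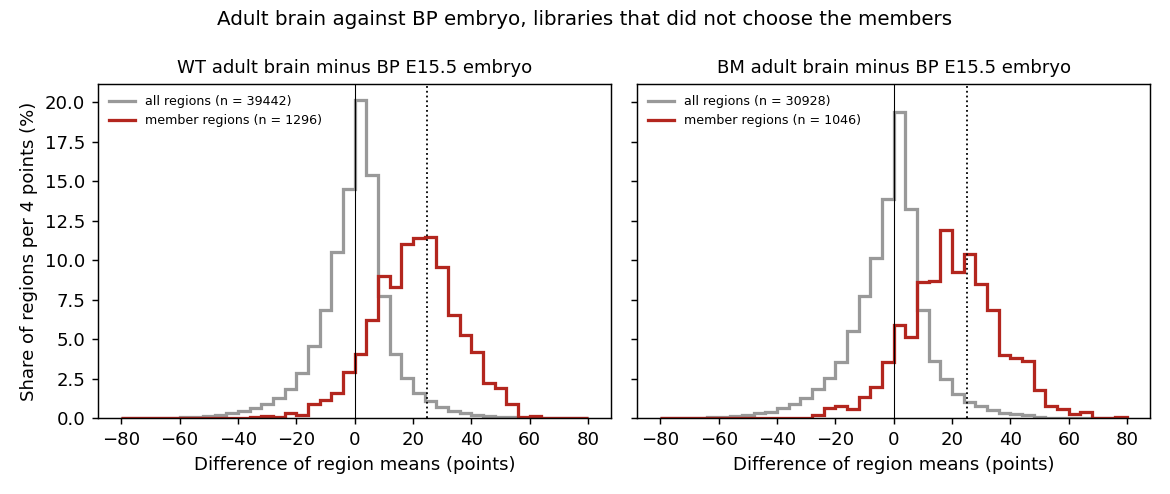
Share of regions in percent per 4 points of difference between an adult brain and the BP E15.5 embryo, for members (red) and all regions (grey). The dotted line marks 25 points. The members' medians lay at 21.7 points (WT) and 20.2 points (BM), while all regions centred near 0.

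Members with a larger margin in the rule passed 25 points in the adult brain more often. These bins were chosen after the values were seen. They use the differences that chose the members, so nothing is read from this order. Of members with a smaller difference of 25 to under 30 points, 193 of 656 were higher in the adult WT brain than in the BP embryo by 25 points (29.4%). From 30 to under 40 points this was 242 of 521 (46.4%), and from 40 points on it was 73 of 119 (61.3%).

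Adult levels lay between those of the E19.5 brain and the embryos. The members' mean was 54.04% in the adult WT brain (1382 members) and 53.4% in the adult BM brain (1101 members). In the BP embryo it was 34.1% (1441 members). The adult WT brain was lower than the E19.5 brain by 25 points in 125 of 1382 members (9.04%), beside 2.98% of all regions. The adult BM brain was lower in 160 of 1101 (14.5%), beside 5.99% of all regions. Members were chosen for high values in the E19.5 library, so nothing is read from these counts. The 2 adult brains differed little over the members and over all regions alike. The median of BM minus WT was -0.60 points over the members and -0.95 points over all regions. By 25 points 2 of 1101 members differed, both higher in BM (0.182%). Of all 32622 regions, 0.0337% were higher and 0.0644% lower by that margin.

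The adult brains also differed from the E19.5 brain in which positions they covered. Of the positions with a value in the E19.5 brain, 89.5% had one in the WT embryo and 89.8% in the BM embryo, but 79% in the adult WT brain and 60.4% in the adult BM brain. Of the adult WT brain's positions, 88.8% had a value in late ahESCs and 78.1% in the adult BM brain, against 55.6% to 62.7% in the embryos, the E19.5 brain and the other ESC libraries except late phESCs (47.5%). The part of this difference in coverage in the adult values was not tested. Among the embryos, 51 of 1441 members were higher by 25 points in BP than in WT (3.54%, beside 1.41% of all regions), and 1 was lower. Low values in the WT embryo chose the members, so nothing is read from this excess.

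The largest margin over at least 10 cytosines was at Fezf2, a zinc-finger factor of forebrain progenitors and of neurons that project below the cortex. The region chr14:13174001-13175000, which holds placed untranslated exon sequence of Fezf2, had 12 kept cytosines, each higher in the E19.5 brain. Its level was 73.5% in that brain, 8.02% in the WT embryo, 9.23% in the BM embryo and 4.75% in the BP embryo. The adult WT and BM brains had 37.0% and 40.4%. All 3 brain libraries lay above all 3 embryos. Early diploid ESCs had 53.4%, early ahESCs 62.7% and early pESCs 27.5%. Their late counterparts had 15.1%, 24.2% and 17.7%, so early diploid and androgenetic cells were far above the embryos at this region. The neighbouring region with coding exon sequence (chr14:13175001-13176000) had 38.9% in the E19.5 brain, 29.0% and 30.1% in the adult WT and BM brains and 4.57% to 8.77% in the embryos. Farther out, 2 adjacent regions 3528 and 4528 bp from the nearest placed Fezf2 exon had 66.7% and 64.7% in the E19.5 brain and 10.9% and 4.52% in the WT embryo.

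**Figure D3:**
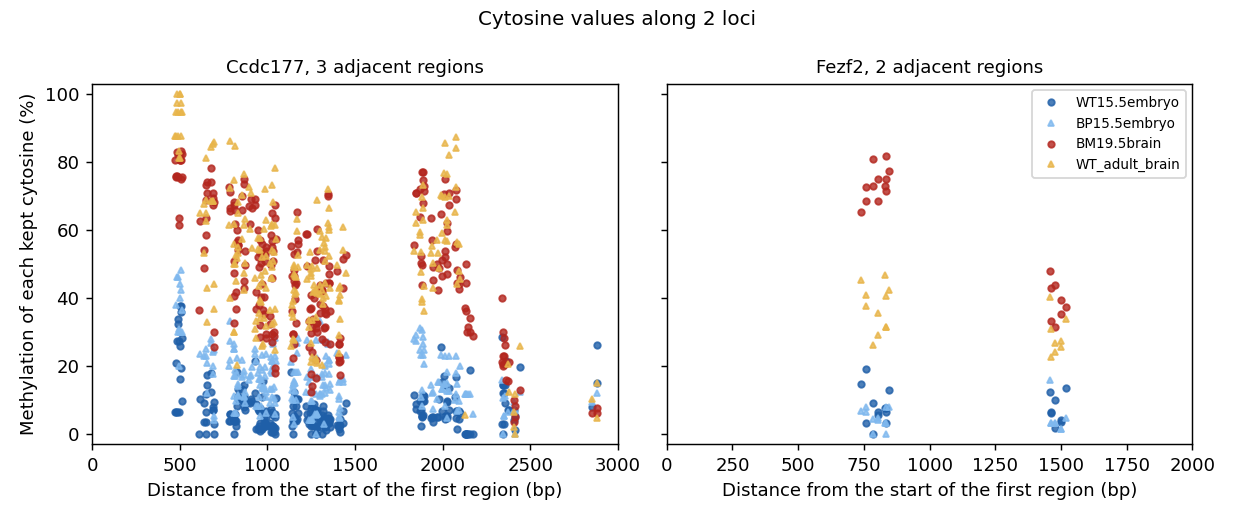
Methylation in percent of each kept cytosine against distance in bp from the start of the first region, along the 3 adjacent Ccdc177 members (left) and the 2 adjacent Fezf2 members (right). Blue points are embryos, red points the E19.5 brain and yellow triangles the adult WT brain. At Fezf2 both brains lie above both embryos, with region means of 73.5% and 37.0% against 8.02% and 4.75% in the first region. At Ccdc177 the gap closes towards the right end.

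The next largest margins were in introns and promoters of genes of several kinds. An intron of Camta1, a calmodulin-binding transcription activator, had 60.4% in the E19.5 brain (chr4:150978001-150979000). It had 42.7% and 41.4% in the adult WT and BM brains, 4.83% to 5.50% in the 3 embryos and 1.87% to 4.83% in the 6 stem cell libraries. Over its kept cytosines, 10 of 19 listed, it was thus low in each of the 9 libraries that were not brain. These cytosines could reach the 20% through the brain libraries alone. An intron of Slc1a5, a transporter of neutral amino acids, had 74.6% in the E19.5 brain, 52.5% and 50.4% in the adult WT and BM brains and 19.4% to 24.1% in the embryos. An intron of Rara, a retinoic acid receptor, had 53.6% in the E19.5 brain and 4.4% in the WT embryo. The promoter of Stra6, the receptor for retinol uptake, had 63.4% and 14.5%. Other regions among the 15 largest lay in introns of Cdh22 (a cadherin) and Prdm16 (a zinc-finger regulator) and in a coding exon of Mturn. Another lay 2003 bp from Mir9-3hg, the host of a brain microRNA of the miR-9 family, with 55.1% in the E19.5 brain, 59.0% and 64.5% in the adult WT and BM brains and 5.81% to 8.42% in the embryos.

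The Vcpkmt promoter region was at 49.7% in the E19.5 brain, 30.7% in the adult WT brain and 44.4% in the adult BM brain. The embryos had 1.11% to 2.12%, and the stem cells 2.21% to 6.99%. Over the kept cytosines of this CpG-dense region, 28 of 130 listed, the 3 brain libraries thus stood apart from the other 9. Of these 28, 26 were higher in the E19.5 brain than in both embryos. A cytosine could reach the 20% through the brain libraries alone, so the choice of cytosines favours this separation.

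**Figure D4:**
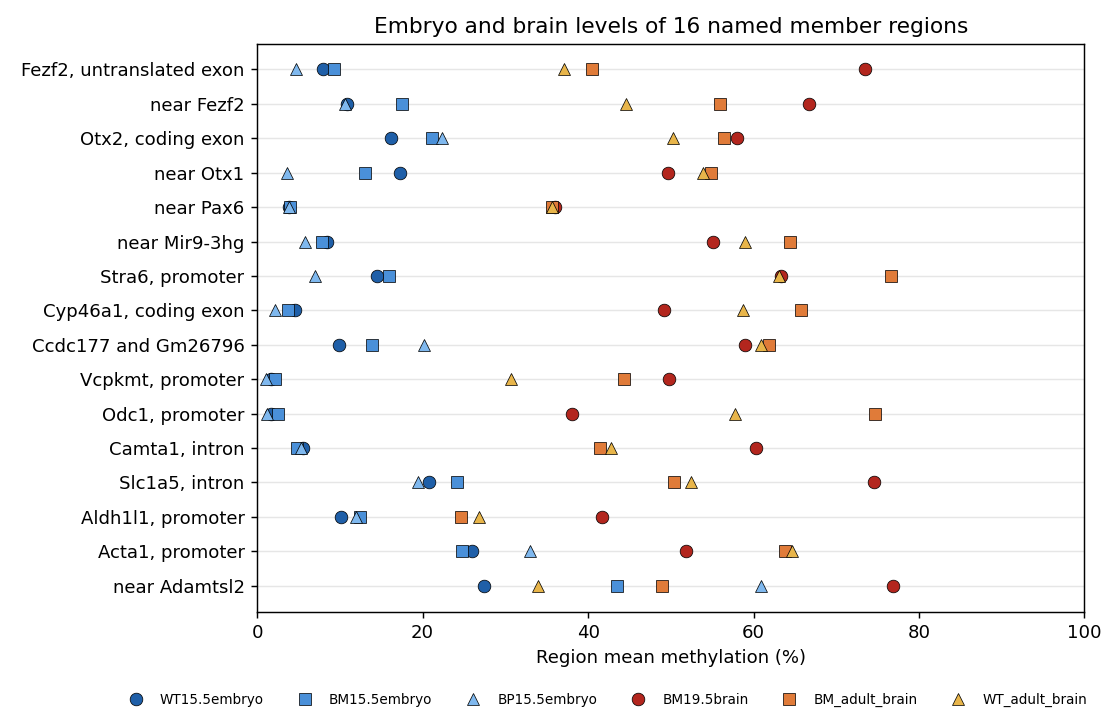
Region mean methylation in percent of 16 named members in the 3 embryos (blue) and the 3 brains (red, orange and yellow). The 16 were picked by hand from the named members, so they give no share of the members. In 15 of them the 3 brains lie to the right of the 3 embryos. The exception is the region near Adamtsl2, where the BP embryo (60.9%) lies above both adult brains (33.9% and 48.9%). Named members not drawn here also break this order, such as those at Fam167b, Meox1 and Igf2.

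Over at least 10 cytosines shared by the 2 libraries, the members highest in the adult WT brain against the BP embryo were at Odc1, Cyp46a1, Otx1, Tgif2 and Stra6. The promoter region of Odc1, ornithine decarboxylase, the rate-limiting enzyme of polyamine synthesis, was at 38.0% in the E19.5 brain over 38 cytosines. These were 38 of 259 listed, and a cytosine could reach the 20% through the brain libraries alone. The adult WT brain had 57.7% and the adult BM brain 74.6%, against 1.23% to 2.47% in the embryos and 1.03% to 9.11% in the stem cells. Over cytosines shared with the BP embryo the adult differences were 61.3 points (WT) and 81.1 points (BM), and both adult brains were above the E19.5 brain here. The Cyp46a1 region had 49.1% in the E19.5 brain, 58.7% and 65.8% in the adult WT and BM brains and 2.19% to 4.61% in the embryos. A region 2809 bp from Otx1, a paralogue of Otx2, had 49.6% in the E19.5 brain, 53.9% and 54.8% in the adult brains and 3.62% to 17.3% in the embryos.

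At the other end, also over at least 10 shared cytosines, the region near Adamtsl2 was 27.0 points lower in the adult WT brain than in the BP embryo. The embryos themselves were spread there, with 27.5% in WT, 43.5% in BM and 60.9% in BP. A coding exon of Fam167b was at 76.4% in the E19.5 brain and 42.8% to 43.7% in the embryos, but at 25.6% and 22.6% in the adult WT and BM brains. At this exon the adult brains were therefore below all 3 embryos.

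Most members stood alone: 1456 had no adjacent member, 60 runs held 2 regions and 6 runs held 3. The run at Ccdc177 had the most cytosines apart from a run in a repeat described below, with 93, 124 and 49 in its 3 regions. Levels in the E19.5 brain were 59.0%, 43.6% and 36.2%, in the WT embryo 9.93%, 5.11% and 8.3%, and in the adult WT brain 60.9%, 47.5% and 45.8%. Early diploid ESCs had 1.4%, 1.67% and 10.1%. The BP embryo, at 20.1%, 16.1% and 11.4%, was above the other 2 embryos in each of the 3 regions. A provisional gene, Gm26796, overlaps this run.

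The run at Thbd, the thrombomodulin receptor of vessel walls, had 60.9%, 37.0% and 32.8% in the E19.5 brain and 27.6%, 3.17% and 3.38% in the WT embryo. The run at Dmrt3, a factor of spinal and cortical neurons, had 38.7%, 56.4% and 71.6% against 4.46%, 15.1% and 25.1%. A run at Kcnk4, a potassium channel gene beside Catsperz, had 47.4%, 39.96% and 47.7% against 18.3%, 9.65% and 17.0%, and a run near Lrrc1 had 76.3%, 64.8% and 60.3% against 49.1%, 17.9% and 33.9%. The sixth run, at Gm26917 on chromosome 17, lies in a copy of the ribosomal RNA repeat and held 9, 162 and 232 cytosines. Its E19.5 brain levels were 49.3%, 43.1% and 45.4%, against 10.5%, 8.69% and 12.6% in the WT embryo. Reads of near-identical copies cannot be split with certainty, so these 3 regions are uncertain. Their embryos differed as well, with 31.7%, 22.4% and 22.4% in BP.

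Among the lists of genes by tissue, regulators of brain patterning held the largest share of members, on small counts. Of 81 regions on their exons or promoters 5 were members (6.17%), beside 3.18% of all regions tested. With introns it was 10 of 120 (8.33%), beside 7 of 93 (7.53%) for skeletal muscle genes and 3 of 47 (6.38%) for glia genes. Within 10 kb of a placed exon it was 18 of 158 (11.4%), beside 4 of 57 (7.02%) for glia genes. These 18 include neighbouring regions at Pax6 and at Fezf2, so they are not 18 separate loci. The counts with introns and by distance, and the genes named through them, were added after values were seen. Over the 70 of these 81 regions with values in both, the median of the adult WT brain minus the BP embryo was 8.30 points, against 1.01 points over all regions. For exons and promoters of the other lists it ran from -8.90 points (glia genes) to 6.88 points (epithelial and gut genes). Over all promoter regions it was 4.15 points.

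The members on exons and promoters were at Fezf2, Otx2 and Pax6. Pax6, a paired-box factor of the eye and forebrain, was the nearest placed gene of 5 members. The one with most cytosines (29) lay 1057 bp from a placed exon (chr2:105507001-105508000). It had 36.0% in the E19.5 brain, 35.6% and 35.7% in the adult WT and BM brains and 3.83% to 3.95% in the 3 embryos, so the 3 brains were alike and the 3 embryos were alike. The region with the start of a placed Pax6 transcript (chr2:105514001-105515000) had 37.9% in the E19.5 brain but 18.6% and 18.0% in the adult WT and BM brains. Other members lay in introns of Emx1 and Pax5 and within the gene body of Lhx2, and near Otx1, Pou3f2, Nkx6-2 and Sox21, all regulators of neural development. A region near Nkx6-2 had 50.2% in the E19.5 brain, 6.28% in the WT embryo, 19.2% in the adult WT brain and 10.8% in the adult BM brain, so the adult brains were closer to the embryos there.

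The Otx2 region had 57.9% in the E19.5 brain, 50.2% in the adult WT brain and 56.4% in the adult BM brain. The WT, BM and BP embryos had 16.2%, 21.1% and 22.4%. The brains did not overlap with the embryos, though the E19.5 brain and the WT and BM embryos chose the member. Early diploid ESCs were at 20.4% and late ones at 2.83%.

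Hox genes, the regulators of the body axis, held no member in 43 regions on exons or promoters and none in 59 within 10 kb. Their median smaller difference was -5.15 points, so the E19.5 brain was mostly below at least 1 of the embryos there. Germline genes held none in 30 regions, and epithelial and liver genes none in 37 and 32. Beside 3.18% of all regions, these lists are too short to read a 0. With introns, epithelial genes held 1 of 51 and liver genes 1 of 40.

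Of 42 neuron gene regions 2 were members (4.76%, beside 3.18% of all regions), both at Nrxn2, a presynaptic neurexin, with 28.4% and 27.8% in the E19.5 brain and 2.38% and 2.21% in the WT embryo. The provisional gene Gm14964 overlaps them. Of 37 glia gene regions 2 were members (5.41%): the promoter region of Aldh1l1 and a coding exon of Gfap, both markers of astrocytes. Aldh1l1 had 41.7% in the E19.5 brain, 26.8% and 24.7% in the adult WT and BM brains and 10.2% to 12.4% in the embryos over 27 cytosines. Gfap had 37.4% in the E19.5 brain and 6.8% and 1.18% in the WT and BM embryos, over 5 cytosines. Over the 27 glia gene regions with adult and BP values the median difference was -8.90 points, while the Aldh1l1 region was 12.7 points higher in the adult WT brain.

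For genes of tissues that a whole embryo holds besides brain, the shares lay on both sides of the 3.18% of all regions, on counts of 3 or fewer. Of 58 regions of haematopoietic genes 3 were members (5.17%). Ank1, the ankyrin of red cell membranes, had 72.9% in the E19.5 brain, 25.1% in the WT embryo and 50.1% in the adult WT brain. The others were both at Cbfa2t3, a corepressor in blood progenitors, where the adult WT brain minus the BP embryo came to -1.77 points in the region with values. Of 77 regions of skeletal muscle genes 3 were members (3.9%). The Acta1 promoter region (skeletal actin) had 51.8% in the E19.5 brain, 64.7% and 63.9% in the adult WT and BM brains and 24.8% to 33.0% in the embryos. Des (desmin) had 40.3% in the E19.5 brain, 32.5% in the adult WT brain and 12.2% in the WT embryo. Meox1, a somite factor, had 48.7% in the E19.5 brain, 23.8% in the adult WT brain and 13.3% in the WT embryo. Sox7, a factor of vessel cells, was the member among 51 heart and vessel regions (1.96%), with 38.1% in the E19.5 brain and 7.68% in the BM embryo. Snai1 was the member among 75 skeleton and mesenchyme regions (1.33%). It had 58.0% in all 3 brains to 3 digits and 24.2%, 28.9% and 21.6% in the WT, BM and BP embryos. The part that cell mixture plays in these levels was not tested.

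The Igf2 member was high in 1 library. The list of imprinted genes was added after values were seen, and 1 of its 75 exon or promoter regions was a member. The region (chr7:149844001-149845000) had 36.7% in the E19.5 brain over 20 cytosines, 16 of them higher there than in both embryos. It had 4.79% in the adult WT brain, 4.45% in the adult BM brain, 2.76% to 4.6% in the embryos and 3.44% to 9.65% in the stem cells. So 1 of 12 libraries stood apart over the kept cytosines, which were 20 of 91 listed in the region. The E19.5 brain library helped to choose the member, and a cytosine could reach the 20% through that library alone. With 1 library per group the high level cannot be told apart from a feature of that library.

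By position in genes, 226 members were in promoters (1000 bp before to 500 bp after a placed start), 156 in coding exons, 361 in introns and 807 outside placed genes. As a share of the tested regions of each kind this was 3.54%, 1.53%, 4.33% and 3.38%. Promoter members had lower medians than members outside placed genes: 51.3% in the E19.5 brain, 14.99% in the WT embryo and 40.6% in the adult WT brain. Members outside placed genes had medians of 69.7%, 32.2% and 57.7%. Coding exon members had the largest median adult WT minus BP difference, 27.7 points, with 83 of 133 higher by 25 points. Over all coding exon regions the median was -0.96 points, and 2.83% passed that margin. On chromosomes, the share ran from 2.18% on chromosome 10 to 4.15% on chromosome 2. In base composition the members resembled the rest where placed bases allowed a look. Over 286 members with at least 200 placed bases the median was 58.9% G and C and 3.82 CpGs per 100 bases, against 58.4% and 3.95 over 12036 regions.

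Early diploid ESCs and early ahESCs were spread wider over the members than the tissue libraries were. Early diploid ESCs had a mean of 40.2% with a standard deviation of 28.5 points over 1582 members, against 61.1% over all regions. Early ahESCs had 37.8% and 26.8 points, and the tissue libraries had standard deviations of 16.6 to 20.3 points. Over all regions the 10th to 90th percentiles ran from 10.3% to 88.8% in early diploid ESCs and from 15.4% to 93.7% in the WT embryo. The rule limits the levels of the 3 tissue libraries that it compares, so nothing is read from the wider spread over the members. The members' mean was 23.1% in early pESCs, 15.3% in late ESCs, 21% in late ahESCs and 13.2% in late phESCs (709 members). Early diploid ESCs were higher than the WT embryo by 25 points in 456 of 1582 members (28.8%), beside 5.18% of all regions. They were lower in 106 (6.70%), beside 14.7% of all regions. The members were chosen for low values in the WT embryo, so nothing is read from these 2 counts. Late diploid ESCs were lower than early ones by 25 points in 773 of 1507 members (51.3%), beside 74.2% of all regions. Early pESCs were lower than early diploid ESCs in 525 of 1546 (34.0%), beside 54.1% of all regions. Both shares were below the background, and members started from lower early levels.

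Split by their level in early diploid ESCs, at limits chosen after values were seen, the members formed unlike classes. Those under 20% numbered 540 of 7419 such regions (7.28%), those from 20 to under 50% 384 of 7062 (5.44%) and those at 50% or more 658 of 35147 (1.87%). In the first class the median was 51.1% in the E19.5 brain, 16.1% in the WT embryo and 44.9% in the adult WT brain, and 126 members were in promoters. There 235 of 448 were higher in the adult WT brain than in the BP embryo by 25 points (52.5%, against 9.59% of all regions of that class). In the last class the medians were 77.7%, 41.5% and 65.3%, with 44 in promoters, and 158 of 523 passed that margin (30.2%, against 1.23%). The Odc1, Cyp46a1, Vcpkmt, Camta1 and Slc1a5 regions belonged to the first class, with 1.21%, 7.34%, 2.21%, 4.36% and 3.13% in early diploid ESCs. The leading Fezf2 region, with 53.4%, belonged to the last. Cytosines in regions low in stem cells and embryos can reach the 20% through the brain libraries, and the size of the first class depends on that floor. With the 20% to be reached in any of the 6 stem cell libraries, it held 32 of 2261 regions (1.42%), and 14 of 27 passed the adult margin (51.9%, against 2.2% of all such regions). The last class then held 643 of 34081 (1.89%), and 161 of 510 passed (31.6%, against 1.22%).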

How the data were processed

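RRBS was measured in 12 libraries, 1 per group. The deposited table gives, per the submitters' processing notes, the authors' methylation percent at each of 8119606 cytosine positions, made with Trim Galore and Bismark 0.13.1 on build mm9. Per the labels' protocols, DNA was cut with MspI and fragments were selected by size. Missing values are written N. The table gives no read counts, so depth is unknown and no interval is given. Positions with a value ran from 3773871 (BP15.5embryo) to 5903648 (WT_adult_brain).

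Tiles of 1000 bp were made on autosomes 1 to 19. A cytosine was kept if it had a value in the 3 libraries of the rule and 20% or more in any library, and a tile needed 5. Other comparisons used cytosines with a value in both libraries, so a difference need not equal that of 2 printed levels. Higher or lower means 25 points.

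No mm9 annotation was used. Exons of GENCODE M21 and RefSeq promoter windows (GRCm38) were placed on mm9 where every listed position inside fell on a CG or GC cytosine, with at least 8 such positions. This held for 63628 of 95857 sequences with enough positions. Moved to a wrong offset, 0 of 22795 passed. Of those placed, 42 with a lone shift were left out. A gene that could not be placed is missing from the counts by gene. Of kept cytosines in members, 30.6% had a known context, and 98.3% of these were CpG.

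The members, lists and comparisons were chosen with earlier results of these data known. Regions were named if they were among the 15 largest margins over at least 10 cytosines, on an exon or promoter of a listed gene, among the 5 highest or 5 lowest in adult WT brain minus BP embryo over at least 10 shared cytosines, in the longest runs (6 tied), or next to the 25-point limit. The rule was tested on simulated data. Alternatives were another 20% floor, none, 10 cytosines, medians, 35 points, shifted tiles, and leaving out cytosines at 0 or 100 or at MspI sites. A floor over the 9 libraries that are not brain, or over the 6 stem cell libraries, was added after the values were seen. Python 3.11.15, NumPy 2.4.6 and pandas 2.3.3 were used.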

Additional observations from a re-analysis of the deposited data

How the results depend on the processing

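Over 10 alternatives and 4 counts, 24 values stayed within 1.5 times the reported ones and 16 did not. Without the 20% floor, which adds positions low in every library, 131379 regions gave 36 members, and the counts higher than the BP embryo were 3 of 22 in the adult WT brain, 3 of 18 in the adult BM brain and 18 of 25 in the E19.5 brain. With at least 10 cytosines they were 573 members, then 208 of 453 (45.9%), 171 of 347 (49.3%) and 401 of 502 (79.9%). With a rule of 35 points they were 337 members, then 155 of 282 (55%), 130 of 240 (54.2%) and 285 of 308 (92.5%). The settings without the floor or with 10 cytosines test other regions by construction, and that of 35 points is a stricter cut on the same 50096 regions. With the floor over the 6 stem cell libraries, an alternative chosen after seeing the data, there were 981 members, then 286 of 785 (36.4%), 216 of 629 (34.3%) and 619 of 883 (70.1%). The share higher in the adult WT brain ran from 13.6% to 55% over the alternatives, beside 0.0513% to 3.95% of all regions. No paired analysis was possible because each group has 1 library. With no replicates and no read depth, single regions near 25 points, or with 5 cytosines, are uncertain by an amount that is not known.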
